A study of Arabidopsis thaliana with 6 samples.

Results

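The lipid transfer protein genes of *Arabidopsis thaliana* were described in whole seedlings 7 days after inoculation with *Priestia megaterium* YC4-R4. Members were the genes whose short description in the deposited count table contains "lipid transfer protein" or "lipid-transfer protein", which gave 11 of the 19616 genes in the table. They were LTP1, LTP2, LTP3, LTP5, LTP6, LTP7, LTP8, LTP10, LTPG1, EARLI1 and DIR1. Of these, 8 carry in their description the family of pathogenesis-related lipid transfer proteins called PR-14 (the numbered LTP genes).

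The treated group consisted of 3 libraries from wild type Col-0 seedlings that received the bacteria in 0.45% NaCl, and the mock group of 3 libraries from wild type Col-0 seedlings that received the same saline without bacteria. In both groups, seedlings germinated on plates for 5 days, moved to a soil with vermiculite, were inoculated 24 h later and were 13 days past germination at harvest. Each library was made from whole plants ground together, so fewer cells of a type and less RNA per cell cannot be told apart in any of the values. Total counts ranged between 15292377 and 21904205 in treated libraries and between 10804936 and 20040520 in mock libraries.

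Lipid transfer proteins are small secreted proteins whose conserved cysteines pair into disulfide bridges around a hydrophobic tunnel that holds a lipid. In plants they are known for carrying cutin and wax precursors across the cell wall of the epidermis, for the suberin layer of roots and seeds, and, in the case of DIR1, for the systemic spread of immunity through the phloem. Many are among the most abundant transcripts of the shoot epidermis, and several respond to abscisic acid, drought, cold or microbes.

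Expression is given as CPM (counts per 1000000 counts of the library) scaled with TMM factors, which correct for library composition. All 19615 genes tested, the 11 members included, went through the edgeR quasi-likelihood test with Benjamini-Hochberg adjustment. A gene was called where the adjusted p was 0.05 or lower and the groups differed at least 1.5-fold. LTP3, known as a gene induced by abscisic acid and water deficit, was the only member called, and it was higher in treated seedlings. It stood at 2.61-fold the mock level. LTP6 passed the adjusted p with a smaller fold of 1.36, and no member was called lower. Of all genes, 1.73% were called higher and 1.54% lower, so 1 of 11 and 0 of 11 members are counts too small to set the members apart. At the adjusted p alone, 2 of 11 members were higher and 0 of 11 lower, beside 5.10% and 4.52% of all genes.

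The genome around the called gene is shown first, because LTP3 has a close copy beside it. LTP3 (AT5G59320) lies on chromosome 5 from 23928954 to 23929816 on the plus strand in RefSeq TAIR10.1. LTP4 (AT5G59310), its neighbour, runs in the opposite direction, and 2996 bp with no annotated gene separate the pair. LTP4 is outside the members because its short description is marked as removed in the table, as were 826 short descriptions in all. The coding sequences of the pair were identical at 294 of 339 aligned bases (86.7%), the highest identity found among the members and LTP4. The longest identical stretch is shown because reads from it could belong to either gene.
LTP3 and LTP4 shared coding stretch, 44 bases: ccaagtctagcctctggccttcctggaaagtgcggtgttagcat
No 50-base word was common to the transcripts of LTP3 and LTP4, so a read of at least that length held a difference between them.

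Upstream sequence is given for LTP3 and LTP4, for LTP2 and LTP1, for LTP6 and for EARLI1, the member nearest to passing the adjusted p. Each window holds the 300 bases before the annotated transcript start, 5′ to 3′, and comes from the RefSeq TAIR10.1 genome. Capitals mark a match to 1 of 5 motifs searched on both strands.
LTP3 upstream window, chr5:23928654-23928953, plus strand: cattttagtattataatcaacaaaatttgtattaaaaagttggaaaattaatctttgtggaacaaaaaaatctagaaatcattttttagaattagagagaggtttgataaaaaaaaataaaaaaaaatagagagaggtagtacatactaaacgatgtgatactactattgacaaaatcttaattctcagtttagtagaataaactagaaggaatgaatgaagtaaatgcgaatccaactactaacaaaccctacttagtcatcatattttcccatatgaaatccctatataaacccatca
LTP4 upstream window, chr5:23925958-23926257, minus strand: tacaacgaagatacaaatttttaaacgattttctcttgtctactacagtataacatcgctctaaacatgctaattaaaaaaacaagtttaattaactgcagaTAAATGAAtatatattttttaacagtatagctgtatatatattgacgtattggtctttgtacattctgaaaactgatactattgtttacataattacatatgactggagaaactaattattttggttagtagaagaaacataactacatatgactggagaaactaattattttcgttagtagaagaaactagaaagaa
LTP6 upstream window, chr3:2664889-2665188, minus strand: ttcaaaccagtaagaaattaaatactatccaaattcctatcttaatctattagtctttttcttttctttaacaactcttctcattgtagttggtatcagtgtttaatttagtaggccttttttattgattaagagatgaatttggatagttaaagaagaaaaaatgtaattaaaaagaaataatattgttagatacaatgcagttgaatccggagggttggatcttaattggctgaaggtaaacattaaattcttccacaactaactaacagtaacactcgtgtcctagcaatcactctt
EARLI1 upstream window, chr4:7406995-7407294, minus strand: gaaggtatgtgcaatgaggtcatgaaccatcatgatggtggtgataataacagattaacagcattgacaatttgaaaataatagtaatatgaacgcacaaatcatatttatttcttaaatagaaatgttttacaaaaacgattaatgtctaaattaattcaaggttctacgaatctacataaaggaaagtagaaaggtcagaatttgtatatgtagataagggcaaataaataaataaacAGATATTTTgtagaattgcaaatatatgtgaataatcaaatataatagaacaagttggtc
LTP2 upstream window, chr2:16127876-16128175, plus strand: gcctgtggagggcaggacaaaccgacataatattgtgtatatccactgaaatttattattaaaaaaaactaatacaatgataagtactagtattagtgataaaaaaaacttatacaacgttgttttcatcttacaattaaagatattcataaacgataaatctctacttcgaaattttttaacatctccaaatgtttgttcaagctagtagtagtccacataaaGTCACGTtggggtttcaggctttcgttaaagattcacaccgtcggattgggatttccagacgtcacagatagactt
LTP1 upstream window, chr2:16129990-16130289, plus strand: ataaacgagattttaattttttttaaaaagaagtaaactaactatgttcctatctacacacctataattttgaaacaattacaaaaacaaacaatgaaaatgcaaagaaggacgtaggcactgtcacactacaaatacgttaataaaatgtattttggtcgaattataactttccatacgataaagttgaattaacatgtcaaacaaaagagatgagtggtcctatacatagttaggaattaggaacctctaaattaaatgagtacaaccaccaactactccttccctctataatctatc
The windows of LTP3, LTP6 and LTP1 held none of the motifs. A loose form of the L1 box of epidermal genes (TAAATGNA, with any base at N) was found upstream of LTP4, as TAAATGAA. Among members it was found upstream of LTPG1 (1 of 11), as TGCATTTA in reverse. Of 19175 windows of this length, 11.9% held this loose form. It leaves a base open, so a match need not be an L1 box. EARLI1 held the evening element (AAAATATCT, in reverse, 52 to 60 bases before the start), which 2.95% of all windows held. LTP2 held the core of the abscisic acid response element (ACGTGNC, in reverse, 70 to 76 bases before the start), which 10.3% of all windows held. LTP10 held a W box (TTGACC; 14.0% of all windows), the site of WRKY factors, and no member held a GCC box (GCCGCC; 2.38% of all windows), the site of ethylene response factors. None of these letters overlapped another motif, and a match is a description of the sequence alone.

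LTP3 had 88, 72 and 118 counts in treated libraries, against 17, 30 and 32 counts in mock libraries. After scaling these were 3.99, 4.62 and 5.86 CPM in treated libraries, against 1.55, 2.47 and 1.60 CPM in mock libraries. Every treated library was above every mock library, and the lowest treated value was well clear of the highest mock one. The log2 fold change was 1.38 (SE 0.23, 95% interval 0.89 to 1.88, edgeR adjusted p = 0.00244). An exact two-sided permutation test over all 20 assignments of libraries to groups gave p = 0.1, the smallest that 3 against 3 libraries allow. LTP3 was called under each alternative setting, with log2 fold changes of 1.21 to 1.61 and adjusted p of 2.83e-07 (edgeR exact test) to 0.0308 (edgeR without mock library 3).

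LTP4, which is also known as a gene induced by abscisic acid, was likewise higher in treated seedlings. It had 51, 40 and 72 counts in treated libraries, against 2, 10 and 11 counts in mock libraries, which are 2.31, 2.57 and 3.57 CPM against 0.182, 0.823 and 0.549 CPM. The groups did not overlap, and the log2 fold change was 2.39 (SE 0.35, 95% interval 1.62 to 3.16, edgeR adjusted p = 0.00117). Mock library 1, the shallowest library, held only 2 counts of LTP4, so its low end is set by few reads. With the counts of the pair summed to a single value, the log2 fold change was 1.68 (edgeR adjusted p = 0.000641).

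LTP6 (AT3G08770, chromosome 3, 2664069 to 2664888, minus strand) had 41.8, 48.5 and 55.2 CPM in treated libraries, against 37.2, 33.4 and 36.5 CPM in mock libraries. The treated libraries were all above the mock libraries, which lay close together. Its log2 fold change was 0.44 (SE 0.10, 95% interval 0.22 to 0.66, edgeR adjusted p = 0.0156), below the limit of 0.585 that a 1.5-fold change sets. It no longer passed the adjusted p in edgeR without treated library 3 (0.0561), without mock library 2 (0.0794) or without mock library 3 (0.0652). LTP2, at a log2 fold change of 0.40, and LTP6 were the members closest below the fold limit.

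EARLI1 and LTP7 fell just outside the adjusted p. EARLI1 (AT4G12480), a cold-responsive protein with a proline-rich stretch before its lipid transfer domain, had 12.1, 13.4 and 15.4 CPM in treated libraries, against 9.84, 10.1 and 10.9 CPM in mock libraries (log2 fold change 0.39, SE 0.12, edgeR adjusted p = 0.0559). LTP7 (AT2G15050) had 50.9, 47.7 and 58.1 CPM in treated libraries, against 37.8, 45.0 and 44.4 CPM in mock libraries (log2 fold change 0.30, SE 0.09, edgeR adjusted p = 0.0668). The groups did not overlap for either gene. The exact two-sided permutation p was therefore 0.1 for each, the smallest that 3 against 3 libraries allow. With LTP3 and LTP6, 4 of 11 members had all treated libraries above all mock libraries and 0 of 11 had them below, beside 14.5% and 13.8% of all genes. At an unadjusted p under 0.05 in edgeR, the same counts were 4 higher and 0 lower, beside 12.1% and 11.2% of all genes.

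**Figure D1:**
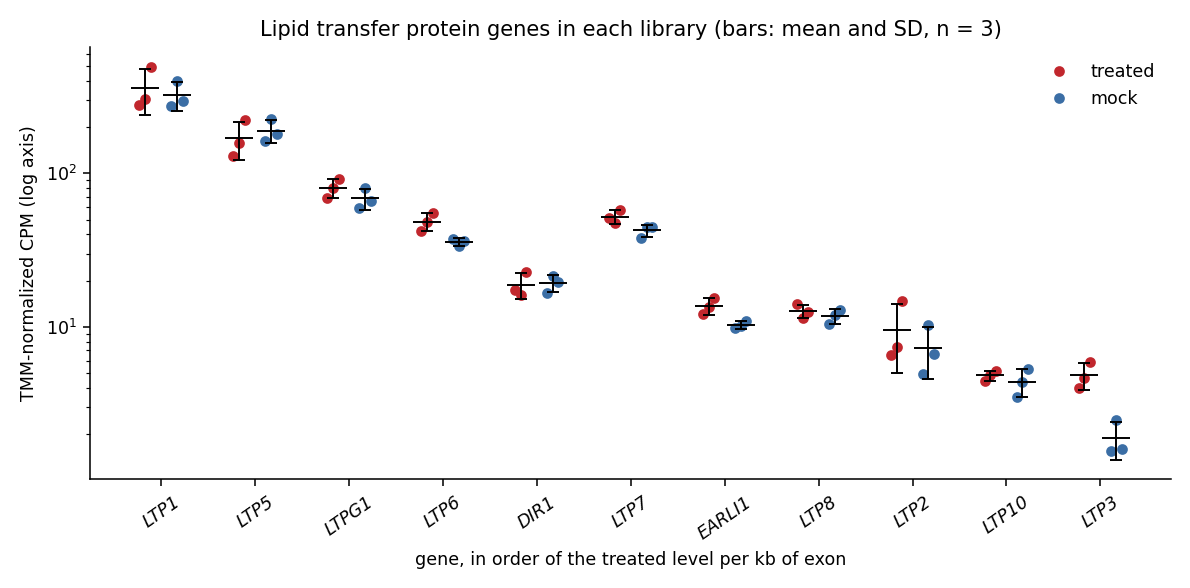
TMM-normalized CPM of the 11 lipid transfer protein genes (log axis), with treated libraries in red on the left and mock libraries in blue on the right of each gene; black bars are the mean and SD of 3 libraries. Only LTP3, LTP6, LTP7 and EARLI1 show every treated library above every mock library, and LTP1 reaches 493.6 CPM in treated library 3.

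The remaining 7 members overlapped between the groups. LTP1 (AT2G38540), a cell wall protein of epidermal cells and the most abundant member, had 278.9, 304.3 and 493.6 CPM in treated libraries, against 272.9, 402.8 and 298.0 CPM in mock libraries. A single library was high in each group, treated library 3 and mock library 2. The log2 fold change was 0.15 with a 95% interval of -0.28 to 0.57 (edgeR adjusted p = 0.719), an interval that reached from a fall to nearly the fold limit.

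LTP2 (AT2G38530), known from the border of cuticle and cell wall in the epidermis, is the tandem partner of LTP1 on chromosome 2. The pair runs in the same direction with 890 bp between the genes, and the coding sequences were identical at 82.4% of aligned bases. LTP2 had 6.53, 7.32 and 14.7 CPM in treated libraries, against 4.92, 10.2 and 6.64 CPM in mock libraries. It was high in the same libraries as LTP1, and its interval was the widest of the members (log2 fold change 0.40, 95% interval -0.27 to 1.07, edgeR adjusted p = 0.484).

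LTP5 (AT3G51600), studied for its part in pollen tube growth, had 130.1, 156.9 and 222.8 CPM in treated libraries, against 163.3, 225.9 and 180.3 CPM in mock libraries. Its log2 fold change of -0.16 (95% interval -0.53 to 0.21, edgeR adjusted p = 0.635) was the lowest among the members. LTPG1 (AT1G27950), a protein held at the cell surface by a lipid anchor and needed for normal wax export to the cuticle, had 68.8, 80.2 and 91.5 CPM in treated libraries, against 59.3, 80.2 and 66.3 CPM in mock libraries (log2 fold change 0.22, 95% interval -0.04 to 0.48, edgeR adjusted p = 0.292). Treated library 2 and mock library 2 were nearly equal for LTPG1, and the treated library 3 was the highest.

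DIR1 (AT5G48485), the lipid transfer protein required for systemic acquired resistance, had 17.3, 16.2 and 22.8 CPM in treated libraries, against 16.6, 21.4 and 19.6 CPM in mock libraries. Its log2 fold change was -0.03 (95% interval -0.33 to 0.26, edgeR adjusted p = 0.919), so a change past the fold limit in either direction lay outside the interval. LTP8 and LTP10 were also within the spread of the libraries, with log2 fold changes of 0.10 each (edgeR adjusted p = 0.667 and 0.794). LTP8 ranged between 11.4 and 14.0 CPM in treated libraries and between 10.4 and 12.9 CPM in mock libraries, and LTP10 between 4.45 and 5.16 CPM in treated libraries and between 3.46 and 5.29 CPM in mock libraries.

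**Figure D2:**
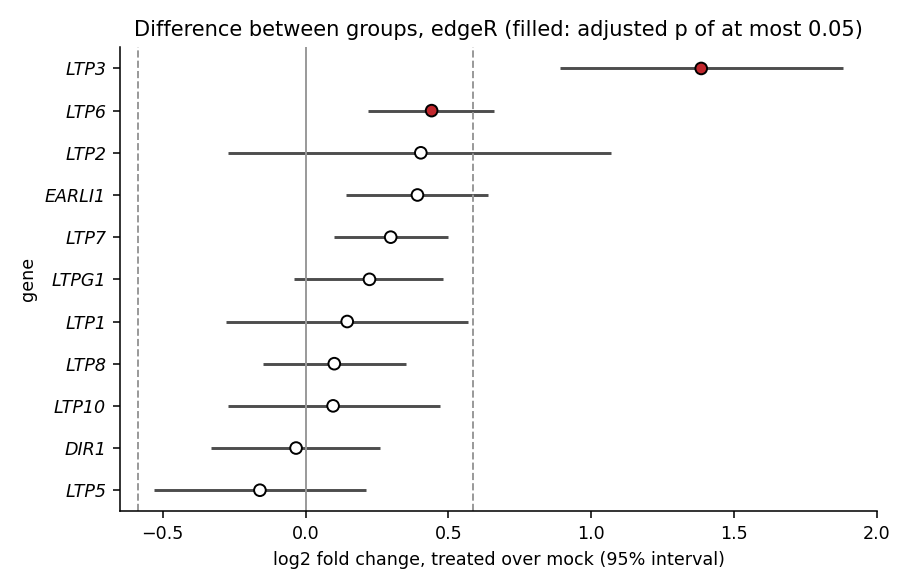
Log2 fold change of each member, treated over mock, with its 95% interval from the edgeR fit (n = 3 libraries each); dashed lines mark a 1.5-fold change and filled points passed an adjusted p of at most 0.05. LTP3 lies alone past the dashed line at 1.38, LTP6 is filled at 0.44, and the interval of LTP2 is the widest.

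Over the 11 members, the log2 fold change was above 0 in 9 and below 0 in 2, while it was above 0 in 48.9% of all genes tested. The median was 0.22 for the members and -0.005 for all genes. The members' median was 0.11 without treated library 3, 0.13 without mock library 1 and 0.34 without mock library 2. These counts describe the members, which come from the same libraries and are not independent of each other.

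Strands differ in what they allow to be separated. DIR1 lies wholly within exonic sequence of AT5G48480 on the opposite strand, and LTPG1 and EARLI1 overlap exons of AT1G27960 and AT4G12485 on the opposite strand. How the counting treated strand, and reads lying in more than a single gene, is not stated in the sources at hand. Whether reads of DIR1 were kept apart from those of AT5G48480 is therefore not known. The log2 fold change of AT5G48480 was -0.19 (edgeR adjusted p = 0.282). AT1G27960 stood at -0.18 (edgeR adjusted p = 0.447). The other 8 members overlapped no annotated gene, and 10 of 11 shared no 50-base word with another gene.

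Levels of different members were compared as CPM per kb of annotated exon. LTP1 was highest with 431 ± 141 CPM per kb in treated seedlings and 390 ± 82.8 CPM per kb in mock seedlings (SD, n = 3 each). LTP5 came next with 174 ± 48.7 CPM per kb in treated and 194 ± 33.1 CPM per kb in mock seedlings, below LTP1 in every library. LTPG1 followed with 81.6 ± 11.6 CPM per kb in treated and 69.9 ± 10.8 CPM per kb in mock seedlings, and LTP6 with 66.8 ± 9.21 and 49.2 ± 2.77 CPM per kb. LTPG1 and LTP6 overlapped in treated libraries but not in mock libraries.

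The lower members lay close together. DIR1 had 23.1 ± 4.34 CPM per kb in treated and 23.6 ± 2.99 CPM per kb in mock seedlings. LTP7 had 18.6 ± 1.90 in treated and 15.1 ± 1.42 CPM per kb in mock seedlings, but its annotation of 2801 exonic bases includes one long transcript that lowers this value. EARLI1 had 14.6 ± 1.80 and 11.1 ± 0.612 CPM per kb, and LTP8 had 14.0 ± 1.42 and 13.0 ± 1.39 CPM per kb, in treated and mock seedlings, so their order differed between the groups within their spread. LTP2 had 8.56 ± 4.07 and 6.52 ± 2.42 CPM per kb, and LTP10 had 6.94 ± 0.518 and 6.31 ± 1.32 CPM per kb, in treated and mock seedlings. LTP3 was last in both groups, with 6.27 ± 1.23 CPM per kb in treated and 2.43 ± 0.672 CPM per kb in mock seedlings. It overlapped LTP10 in treated libraries and was below it in every mock library. The called member is therefore the one with the lowest level, and LTP1 exceeded it 68.8-fold in treated and 160.0-fold in mock seedlings.

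The gene structures give a feature that the choice of members did not use. In 8 members (LTP1, LTP2, LTP3, LTP5, LTP6, LTP7, LTP8 and LTP10) at least 1 annotated transcript splits the coding sequence just before its end, leaving a last coding segment of 10 bases. The same holds for LTP4. EARLI1 and DIR1 have an unbroken coding sequence, and LTPG1 ends in a coding segment of 230 bases. These 8 genes are the same as those described as PR-14.

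The members also shared a pattern among the libraries. Treated library 3 was the highest treated library for 10 of 11 members (29.0% of all genes), and mock library 2 was the highest mock library for 7 of 11 (32.0% of all genes). Both held for 7 of 11 members, against 12.1% of all genes. Mock library 1 was the lowest mock library for 10 of 11 members (38.4% of all genes). LTP2 varied most, with a within-group SD of 0.585 on the log2 scale, followed by LTP1 with 0.377, and EARLI1 varied least with 0.137. The median SD was 0.227 over the members and 0.129 over all genes. The summed level of 5 photosynthesis genes was also highest in treated library 3 and mock library 2, with 24670, 21600 and 31570 CPM in treated libraries and 21130, 27530 and 25520 CPM in mock libraries. The summed levels of the cutin and wax lists read further below were highest in these libraries too. Cutin genes summed to 865.7, 873.6 and 937.5 CPM in treated libraries and 708.5, 792.4 and 754.4 CPM in mock libraries. Wax genes summed to 1050, 1021 and 1056 CPM in treated libraries and 927.1, 999.9 and 986.4 CPM in mock libraries. The suberin, systemic immunity, root hair, root, shoot epidermis and guard cell lists did not peak in both. The part of any list in the pattern of the members was not tested.

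**Figure D3:**
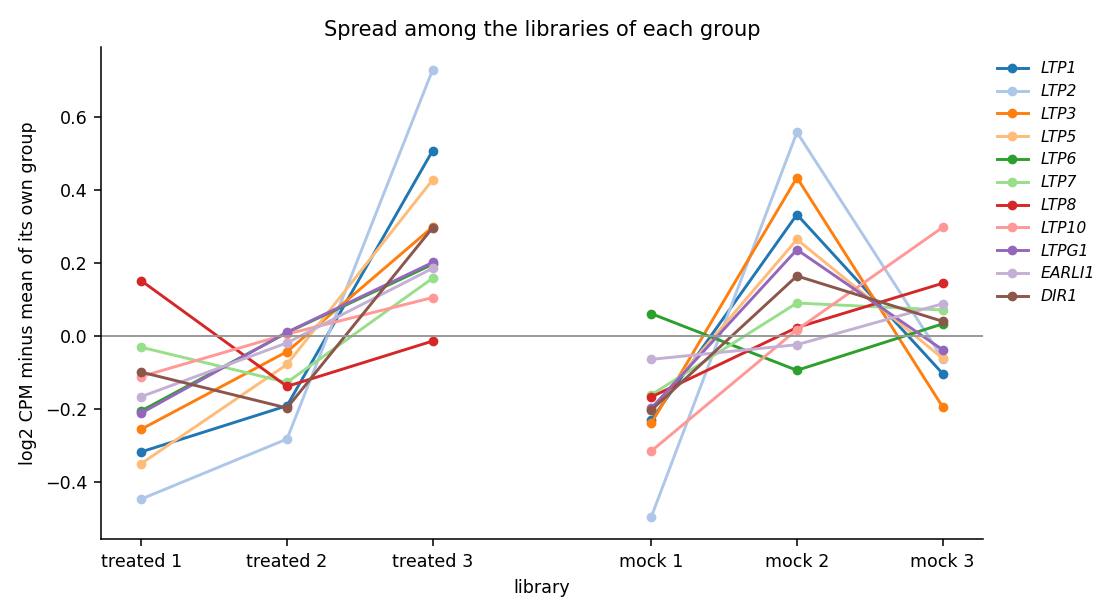
Log2 CPM of each member minus the mean of its own group, for treated libraries 1 to 3 on the left and mock libraries 1 to 3 on the right; lines join the values of a gene and carry no order in time. Most lines peak at treated library 3 and at mock library 2, with LTP2 the furthest from 0 in both, while LTP6 is lowest in mock library 2.

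A ratio to LTP1 within the same library takes out a shift that both genes share. LTP3 stood at 14.3, 15.2 and 11.9 per 1000 LTP1 in treated libraries, against 5.68, 6.13 and 5.36 per 1000 LTP1 in mock libraries. LTP5 stood at 466.5, 515.6 and 451.3 per 1000 LTP1 in treated libraries, against 598.5, 560.9 and 605.0 per 1000 LTP1 in mock libraries. Neither ratio overlapped between the groups, LTP3 higher and LTP5 lower, although LTP5 itself overlapped. In their own CPM, 14.5% of all genes lay wholly higher and 13.8% wholly lower in treated libraries. The share of all genes whose ratio to LTP1 did not overlap was not determined. The other 8 ratios to LTP1 overlapped, that of LTP6 included, with 150.0, 159.3 and 111.8 in treated libraries against 136.3, 82.9 and 122.3 in mock libraries. The ratios were chosen after the values were seen and were not tested.

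As a share of the summed CPM of the 11 members, LTP1 and LTP5 together took 65.0%, 66.3% and 71.8% in treated libraries, against 70.7%, 74.2% and 70.1% in mock libraries. LTP3 took 0.63%, 0.67% and 0.59% in treated libraries, against 0.25%, 0.29% and 0.23% in mock libraries. The summed CPM was 774 ± 197 in treated and 716 ± 119 in mock seedlings (SD, n = 3 each), a difference smaller than the spread. Without LTP1 and LTP5, the summed CPM was 245 ± 32.1 in treated and 201 ± 19.1 in mock seedlings. The lowest treated value, 219.9 in library 1, lay just above the highest mock value, 219.0 in library 2. Taken singly, 14.5% of all genes had every treated library above every mock library. LTP1 and LTP5, the most abundant members, were left out with the values known, and this sum was not tested.

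**Figure D4:**
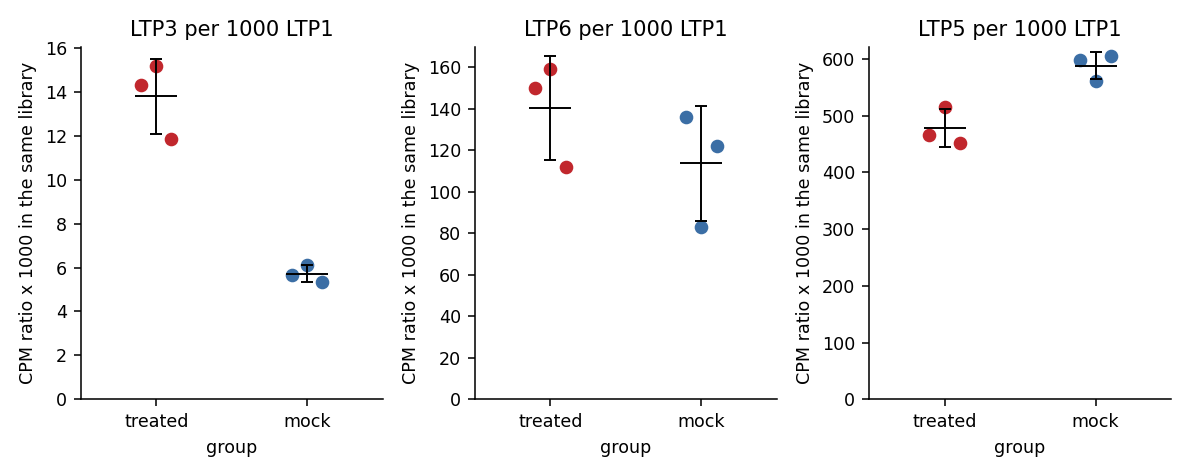
CPM of LTP3, LTP6 and LTP5 per 1000 CPM of LTP1 in the same library, treated on the left and mock on the right; points are libraries and black bars the mean and SD (n = 3). LTP3 lies between 11.9 and 15.2 in treated and between 5.36 and 6.13 in mock libraries. The LTP6 ratio overlaps, and the LTP5 ratio is lower in all treated libraries.

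A wider reading of the descriptions, with the phrase in any description column, added 56 genes (67 in all). Of the added genes, 46 have no short description and 4 match only through "glycolipid transfer protein". LTP4, AZI3 and AT5G48490 were called higher and 0 were called lower, beside 1.73% and 1.54% of all genes. At the edgeR adjusted p alone, 8 were higher and 2 lower, beside 5.10% and 4.52% of all genes. The median log2 fold change of the added genes was 0.02, beside -0.005 for all genes. AT5G05960 (-0.35) and AT4G39670 (-0.55), a glycolipid transfer protein by its description, were the 2 that fell at the adjusted p.

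EARLI1 sits in a row of related genes on chromosome 4, of which 8 are in the table and span 38719 bp. AZI3, next to EARLI1, had 37.6, 35.1 and 41.5 CPM in treated libraries, against 24.1, 24.3 and 25.2 CPM in mock libraries, with no overlap (log2 fold change 0.63, SE 0.08, edgeR adjusted p = 0.000485). AIR1, first found as an auxin-induced gene of root cultures, rose by a log2 fold change of 0.44 (edgeR adjusted p = 0.00372), and AT4G12545 by 0.49 (edgeR adjusted p = 0.00903), both below the fold limit. AZI1, known for priming of systemic immunity by azelaic acid, stood at -0.10 with overlapping libraries (95% interval -0.37 to 0.17, edgeR adjusted p = 0.703). Of the 8 genes, 3 were higher at the adjusted p and AZI3 was the one past the fold limit, beside 5.10% and 1.73% of all genes. Without treated library 3, AZI3 stood at 0.57, just under that limit.

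DIR1 has a neighbour of the same family, AT5G48490, with 943 bp between the genes. AT5G48490 had 19.9, 14.7 and 18.0 CPM in treated libraries, against 10.2, 10.3 and 12.2 CPM in mock libraries. Its groups did not overlap, and the log2 fold change was 0.68 (SE 0.13, 95% interval 0.40 to 0.95, edgeR adjusted p = 0.00562). The interval of AT5G48490 lay wholly above that of DIR1 (-0.33 to 0.26), but the difference between the genes was not tested. Without treated library 1, AT5G48490 stood at 0.58, just under the fold limit. LTPG6, another lipid-anchored member of the wider family, had a log2 fold change of 0.45 (edgeR adjusted p = 0.000915), with 60.8, 63.8 and 61.2 CPM in treated libraries against 45.5, 45.3 and 45.0 CPM in mock libraries.

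Genes of the surface lipids with which these proteins are linked were read from lists of known pathway genes. Of 17 cutin genes in the table, 0 were called, and 3 were higher at the edgeR adjusted p alone, with a median log2 fold change of 0.25 over the list. Of all genes, 1.73% were called higher and 1.54% lower. At the adjusted p alone, 5.10% were higher and 4.52% lower. These backgrounds apply to each list. The cutin genes were the acyl-CoA synthetase LACS2 (0.31), HTH (0.45), which acts in the oxidation of cutin acids, and the exporter ABCG11 (0.33). Of 16 wax genes, WSD1, a wax ester synthase, was called higher (1.35, edgeR adjusted p = 0.0196), and CER1 (0.48) and CER3 (0.33), which form alkanes together, were higher at the adjusted p alone. WSD1 had 44, 27 and 41 counts in treated libraries, against 14, 9 and 9 counts in mock libraries. Its edgeR adjusted p was 0.07 without treated library 1, 0.0534 without treated library 3, 0.0752 without mock library 2 and 0.128 without mock library 3. The median over the wax list was 0.13.

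In the suberin list, 0 of 16 genes passed the edgeR adjusted p, and the median was 0.09. Of 9 genes of systemic immunity, to which DIR1 belongs by function, 0 were called. At the edgeR adjusted p alone, MPK3 (-0.30), a kinase of early immune signaling, and NPR1 (-0.25), the coactivator of salicylic acid responses, were lower, and FAD7 (0.29), a plastid fatty acid desaturase, was higher. The median over this list was -0.12.

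**Figure D5:**
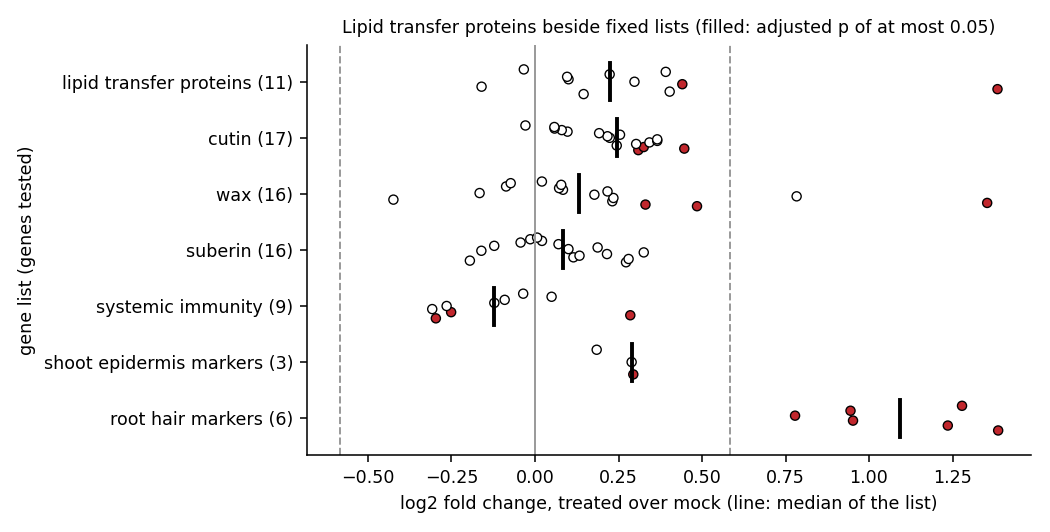
Log2 fold change, treated over mock, of the 11 lipid transfer proteins and of the genes of 6 lists (black line: median of the list; dashed lines: 1.5-fold; filled: edgeR adjusted p of at most 0.05; n = 3 libraries each). The medians were 0.22 for the lipid transfer proteins, 0.25 for cutin, 0.13 for wax, 0.09 for suberin, -0.12 for systemic immunity, 0.29 for shoot epidermis markers and 1.09 for root hair markers.

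Tissue markers were read beside these results, and those of root hairs moved with the groups. All 6 root hair markers in the table were called higher, beside 1.73% of all genes, with a median log2 fold change of 1.09. Their summed level was 23.4 to 27.9 CPM in treated libraries and 9.12 to 12.8 CPM in mock libraries. The count called was 2 without treated library 1, 3 without treated library 3, 3 without mock library 1, 4 without mock library 2 and 2 without mock library 3, with every value still above 0. RHS19, a root hair peroxidase, had the largest log2 fold change of these markers with 1.39. For 3 shoot epidermis markers, 0 were called, PDF2 was higher at the edgeR adjusted p alone (0.29), and the summed level was 346.3 to 366.3 CPM in treated libraries and 280.6 to 309.5 CPM in mock libraries. Of 5 root markers, SCR was higher (0.31) and PHO1 lower (-0.36) at the adjusted p alone. No photosynthesis or guard cell marker (5 and 3 genes) passed it. The part of these tissue markers in the values of LTP3, LTP6 and the other members was not tested.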

How the data were processed

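Whole-seedling RNA was sequenced from 3 treated and 3 mock samples. Per the labels and the paper's methods, the authors trimmed reads with Trimmomatic 0.36, used HISAT2 2.1.0 for alignment to TAIR10 and ran HTSeq-count for gene counts. The deposited raw counts were used. The deposited CPM values equal these counts per 1000000 of the column total within 3.6e-11. The log2 fold changes, p-values and FDR of the authors' edgeR comparison were not used. The labels name 2 library kits and the paper a directional one.

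Counts of all genes were fitted with edgeR 4.0.16 in R 4.3.3 (filterByExpr, which removed 1 gene, TMM, quasi-likelihood test, no covariate), after the procedure was tested on simulated data. Alternatives used DESeq2 1.42.0 and limma 3.58.1. Plots were drawn with matplotlib 3.10.9, and numpy 2.4.6, scipy 1.17.1 and pandas 2.3.3 ran under Python 3.11.15. All 11 members matched loci of RefSeq TAIR10.1, which gave names, exon lengths and sequences.

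Named genes were members past the limits or nearest to them, the most abundant members, family genes with established symbols, and per list the genes of smallest adjusted p (at most 3). Other genes were named after their values were seen. The members and lists were chosen with earlier results of these data known. LTP9, LTP11 and LTP12 were not analysed here. The paper describes biological replicates.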

Additional observations from a re-analysis of the deposited data

How the results depend on the processing

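The count of members called was 1 higher and 0 lower, and it changed for the higher members in 2 alternatives: 2 with no fold limit and 4 under the wider reading of the descriptions. LTP3 stayed called throughout, also with counts thinned to 10804936 per library (log2 fold change 1.46) and when summed with LTP4, both chosen after seeing the data. LTP6 passed the adjusted p in 13 of 16 alternatives, LTP7 and EARLI1 in 2 of 16 each. The log2 fold changes of LTP1, LTP2, LTP10 and DIR1, none of them called, lay on either side of 0 when single libraries were left out (-0.16 to 0.33, -0.07 to 0.69, -0.03 to 0.29 and -0.20 to 0.05). Genes of the fixed lists called higher numbered 7, against 15 with no fold limit, 4 at a fold of 2, 3 with the replicate block (3 of 6 root hair markers, and WSD1 not called with an edgeR adjusted p of 0.0538), and 2 to 7 with single libraries left out (2 without treated library 1 or mock library 3, and 4 without treated library 3, mock library 1 or mock library 2). Called lower were 0, against 3 with no fold limit and 0 to 1 with single libraries left out (1 without treated library 2). Over all genes, 340 were higher and 302 lower, against 1001 and 887 with no fold limit and 98 and 90 at a fold of 2. Same-numbered libraries deviated from their group means with correlations of -0.159, -0.248 and 0.126, and differently numbered ones with -0.292 to 0.379. These values show no closer match by number, but with 3 libraries per group they cannot exclude a pairing. The replicate block gave LTP3 a log2 fold change of 1.41 (edgeR adjusted p = 0.00747). LTP3 and LTP4 rest on 17 and 2 counts in mock library 1.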
